A study of Mus musculus with 10 samples.

Results

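The genes described here encode 35 parts of the lysosome, the acid compartment in which cells break down what they take up and what they discard. They are 6 membrane proteins, 9 proteases, 8 glycosidases, 6 lipid hydrolases and helper proteins, and 6 ubiquitous subunits of the proton pump. The members are a named list, found in the deposited table by gene symbol, and all 35 had a row among 24541 symbols. The rule uses no measured value.

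The mutant group held 4 mice heterozygous for the C105F substitution in Umod (C105F/+, labelled TG), and the wild-type group held 6 littermates (WT). The substitution was edited into C57BL/6J embryos with Cas9, and both groups had a C57BL/6 background and were 12 to 16 weeks old. Umod encodes uromodulin, which tubule cells of the thick ascending limb secrete, so the mutation is not aimed at macrophages. RNA came from kidney cells selected with beads against F4/80, a macrophage surface protein encoded by Adgre1, and the study asked whether macrophages of mutant mice differ in gene expression.

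Lysosomal enzymes are made in the endoplasmic reticulum, receive a sugar tag in the Golgi and are carried to the lysosome by receptors for that tag. There the proton pump holds the interior acid, which most of the enzymes need. Macrophages use lysosomes to digest engulfed particles and dying cells, and proximal tubule cells use them to digest proteins taken up from the filtrate, so both cell types are rich in these RNAs. Many lysosomal genes are switched on by TFEB and its relatives, transcription factors that bind a promoter motif called CLEAR.

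The libraries held 45380415 to 73643200 estimated counts. Levels are given as CPM, estimated counts per 1e6 after TMM scaling, and, where genes are compared with each other, as the deposited FPKM, which is also per transcript length. Adgre1, which the selection should enrich, had 58.2, 58.6, 228.9 and 818.6 CPM in mutant replicates 1, 2, 4 and 5, and 14.0, 27.5, 63.9, 101.7, 145.2 and 406.3 CPM in wild-type replicates 1 to 6. Mutant replicate 5 and wild-type replicate 6 were the highest of their groups, and the groups overlapped. The summed CPM of 14 resident macrophage markers ran from 722 to 8361 in mutants and from 274 to 4150 in wild type, while that of 12 proximal tubule markers ran from 29069 to 63036 in mutants and from 27058 to 70239 in wild type. Tubule RNA was thus present in every library. In these bulk samples, fewer cells of a type and less RNA per cell cannot be told apart. Umod had 1004 to 4331 CPM in mutants and 5784 to 15138 CPM in wild type, and the counts do not show the substituted base. Summed markers of the ascending limb and distal tubule ran from 2892 to 8648 CPM in mutants and from 10892 to 24118 CPM in wild type, with no overlap. Among single genes, 1.96% of all those tested had no overlap between genotypes. The sum includes Umod itself, at a mean of 2470 CPM in mutants and 10076 CPM in wild type. It also includes Egf, at a mean of 639 CPM in mutants and 4345 CPM in wild type. Much of the sum and of its difference thus came from these genes.

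Lysosomal RNAs were abundant in every library. The median over the members of the mean level was 260.6 CPM, against 16.7 CPM over all 15123 genes tested, and 34 of 35 members lay above that median of all genes. Together the members held 1.501% to 2.101% of the counts in mutant libraries and 1.372% to 1.837% in wild-type libraries. No member had fewer than 567 estimated counts in any library.

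Per transcript length, the most abundant member was Psap, whose product is cut into the saposins that present lipids to hydrolases, with a mean of 1026 FPKM over the 10 libraries. Ctsd, the main aspartic protease of the lysosome, followed with 638 FPKM. The membrane glycoproteins Lamp1 and Lamp2 had 605 and 562 FPKM, and Lgmn, an endopeptidase that cuts after asparagine, had 480 FPKM. At the other end stood Npc1, the membrane protein that exports cholesterol, with 4.54 FPKM, and Gla, which removes terminal galactose from lipids, with 4.20 FPKM. Proteases, glycosidases and membrane proteins each spanned a wide range of levels, and the pump subunits a narrow one, from 100.3 FPKM for Atp6v0d1 to 224 FPKM for Atp6v1a.

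**Figure D1:**
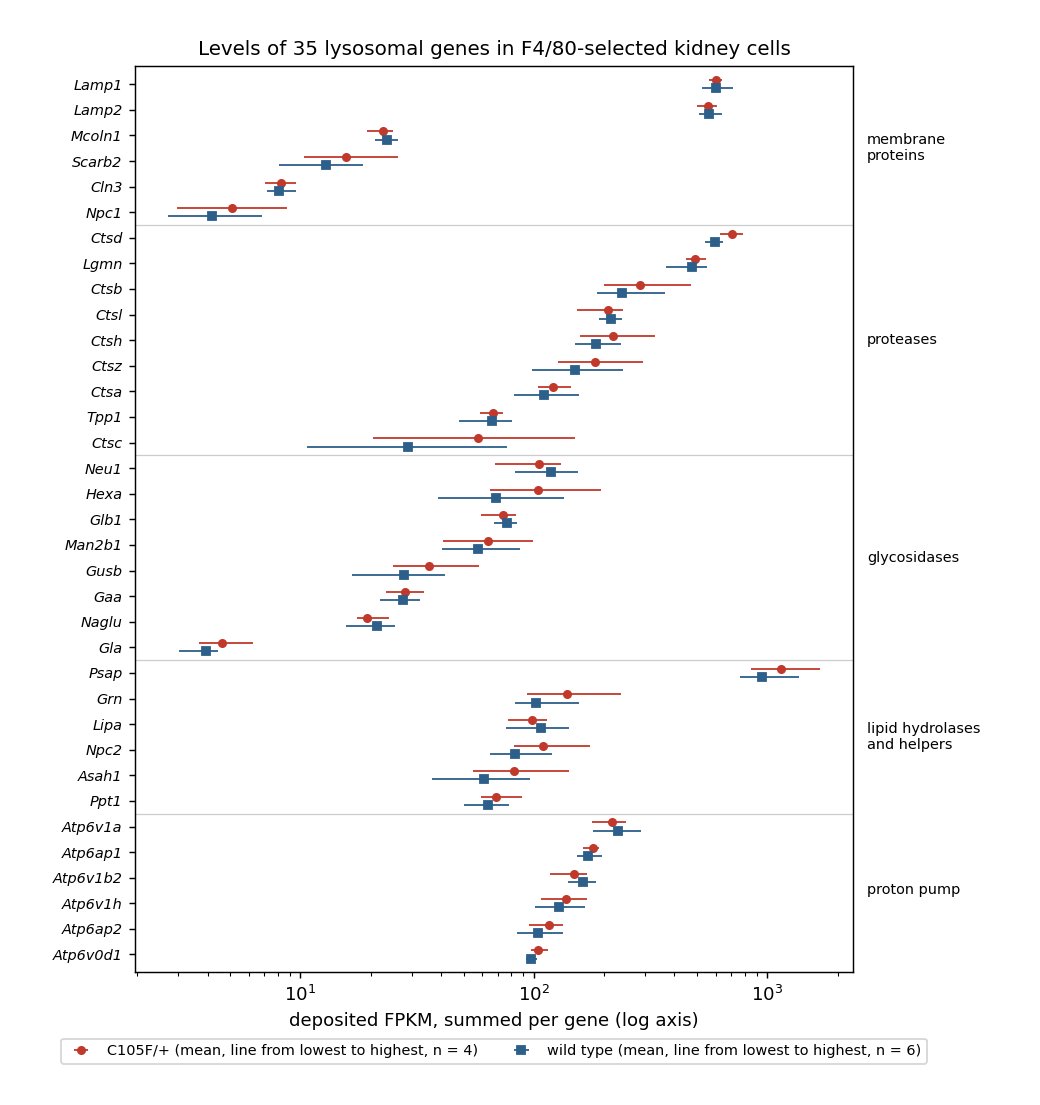
Deposited FPKM of each of the 35 members on a log axis, grouped by role, with a point for the group mean and a line from the lowest to the highest library (C105F/+, n = 4; wild type, n = 6). Psap is highest at a mean of 1026 FPKM over all libraries and Gla lowest at 4.20 FPKM, and the lines of both genotypes overlap for every member.

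Promoter sequences were at hand for 29 of the 35 members, as RefSeq sequences on GRCm38.p6 from 250 bases before to 50 bases after a transcription start. The E-box CACGTG, read on both strands, was present in 13 of these 29 members (44.8%), against 8.09% of all 27025 genes with such a sequence. Its extension TCACGTGA, the core of the CLEAR motif, was present in 7 of 29 members (24.1%) against 1.12% of all genes. The full CLEAR palindrome, which is TCACGTGA with a G before and a C after it, was present in Cln3 alone among the members, against 0.37% of all genes. Each longer motif contains the shorter ones, so these counts overlap. The 7 members with TCACGTGA were Mcoln1, Cln3, Ctsa, Ctsd, Gla, Atp6v0d1 and Atp6v1a, and Lamp1, Ctsl, Lgmn, Glb1, Gaa and Naglu had CACGTG only. A match says that the letters are there and nothing of whether a factor binds.

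Of these promoters 4 are shown, in capitals the longest of the 3 motifs, with any shorter copy of CACGTG left in lower case. Cln3 encodes a lysosomal membrane protein and carries the full motif on chr7:126583187-126583486, minus strand. Ctsd carries the core on chr7:142387778-142388077, minus strand, at a RefSeq start that is not the start of the table's transcript. Ctsl, an endopeptidase, carries the E-box on chr13:64370471-64370770, minus strand. Ctsc, an exopeptidase that removes dipeptides and activates serine proteases of immune cells, has none of the motifs on chr7:88277835-88278134, plus strand; it and Ctsl are shown because they moved in opposite directions along Adgre1, as described further on.
Cln3: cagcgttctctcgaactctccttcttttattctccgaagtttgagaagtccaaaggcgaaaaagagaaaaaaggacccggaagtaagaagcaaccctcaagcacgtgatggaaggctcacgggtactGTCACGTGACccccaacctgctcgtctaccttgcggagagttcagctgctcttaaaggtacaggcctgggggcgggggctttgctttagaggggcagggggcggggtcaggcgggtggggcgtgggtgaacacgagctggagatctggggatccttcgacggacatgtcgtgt
Ctsd: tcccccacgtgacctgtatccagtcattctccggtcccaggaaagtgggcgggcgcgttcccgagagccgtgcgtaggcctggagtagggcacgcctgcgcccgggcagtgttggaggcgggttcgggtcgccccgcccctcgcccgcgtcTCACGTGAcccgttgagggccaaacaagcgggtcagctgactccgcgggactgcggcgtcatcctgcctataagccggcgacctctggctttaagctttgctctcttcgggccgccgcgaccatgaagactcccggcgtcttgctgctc
Ctsl: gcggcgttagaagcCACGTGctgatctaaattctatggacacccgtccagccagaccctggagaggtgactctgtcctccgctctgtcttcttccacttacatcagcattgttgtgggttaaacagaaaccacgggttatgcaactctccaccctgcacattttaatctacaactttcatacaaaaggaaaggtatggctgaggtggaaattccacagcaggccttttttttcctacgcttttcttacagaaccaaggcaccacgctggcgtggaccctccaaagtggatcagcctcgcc
Ctsc: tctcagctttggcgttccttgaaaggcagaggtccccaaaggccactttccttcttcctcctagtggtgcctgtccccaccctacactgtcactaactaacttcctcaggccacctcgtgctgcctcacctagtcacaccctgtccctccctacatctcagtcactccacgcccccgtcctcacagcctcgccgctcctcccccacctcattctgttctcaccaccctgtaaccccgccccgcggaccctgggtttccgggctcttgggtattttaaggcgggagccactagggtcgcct

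Mutant and wild-type libraries were compared first without any covariate. No member passed: in edgeR 0 of 35 were called, meaning an adjusted p under 0.05 by Benjamini-Hochberg over the whole table, against 30 of 15123 genes (0.198%). At an unadjusted p under 0.05 there were likewise 0 of 35 members, against 5.9% of all genes, and DESeq2 and limma-voom also called 0 members. Over the 35 members the log2 fold change had a median of 0.12, against 0.01 over all genes, and single values ran from -0.18 for Neu1 to 0.95 for Ctsc. By sign 25 were positive and 10 negative, or 23 and 12 with upper quartile scaling. For no member did the groups of CPM values separate, against 1.96% of all genes that did in either direction.

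The intervals limit how large a difference could have gone unseen. For 32 of 35 members (91.4%) the 95% interval of the fold change lay within 2-fold in both directions, against 68.7% of all genes. For 20 (57.1%) it lay within 1.5-fold, against 40.4% of all genes. Intervals tend to narrow as counts rise, and the members were more abundant than most genes (median 260.6 CPM against 16.7 CPM). These shares were not matched for level. The exceptions to the 2-fold bound were Ctsc, Hexa and Asah1. All 6 proton pump subunits lay within 1.5-fold, whereas 2 of the 6 lipid hydrolases and helpers did.

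In 5 of the 6 members with the smallest p, the highest value was in mutant replicate 5. Ctsc (gene 13032, chromosome 7, 88278085 to 88315861 on mm10) had 133, 144, 225 and 866 CPM in mutant replicates 1, 2, 4 and 5, and from 84.9 to 438 CPM in wild type with a median of 125 CPM. Mutant replicate 5 stood far above the other mutants and wild-type replicate 6 far above the other wild types, and the groups overlapped. The fold change was 1.93, with a 95% interval from 0.729 to 5.12 (log2 0.95, SE 0.634, edgeR adjusted p = 0.959). The log2 fold change of Ctsc was -0.08 when mutant replicate 5 was left out and 1.46 when wild-type replicate 6 was.

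Hexa, the alpha subunit of beta-hexosaminidase, had 138, 172, 142 and 369 CPM in mutants, and from 78.2 to 247 CPM in wild type with a median of 121 CPM. Asah1, acid ceramidase, had 132, 143, 157 and 302 CPM in mutants, and from 96.8 to 198 CPM in wild type with a median of 133 CPM. In both genes mutant replicate 5 alone lay above all wild-type libraries. Grn, the progranulin gene, had 234, 231, 297 and 521 CPM in mutants, and from 194 to 336 CPM in wild type with a median of 235 CPM. Npc2, the soluble partner of Npc1 in cholesterol export, had 285, 293, 304 and 540 CPM in mutants, and from 213 to 358 CPM in wild type with a median of 264 CPM. Here too only mutant replicate 5 lay outside the wild-type range.

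The log2 fold changes were 0.58 (SE 0.348) for Hexa, 0.43 (SE 0.261) for Asah1, 0.42 (SE 0.246) for Grn and 0.38 (SE 0.212) for Npc2, with edgeR adjusted p of 0.953 to 0.958. Without mutant replicate 5 they were 0.13 for Hexa, 0.08 for Asah1, 0.08 for Grn and 0.10 for Npc2. Mutant replicate 5 was also the library with the most Adgre1 and the highest macrophage marker sum.

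Ctsd was the exception among the 6. It (gene 13033, chromosome 7, 142375916 to 142387870 on mm10) had 1448, 1630, 1177 and 1307 CPM in mutants, and from 1070 to 1494 CPM in wild type with a median of 1123 CPM. All 4 mutant libraries lay above the wild-type median, with the highest values in mutant replicates 1 and 2, and wild-type replicates 1 and 4, at 1494 and 1215 CPM, lay within the mutant range. The log2 fold change was 0.23 (SE 0.148, edgeR adjusted p = 0.959), and 0.26 without mutant replicate 5.

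**Figure D2:**
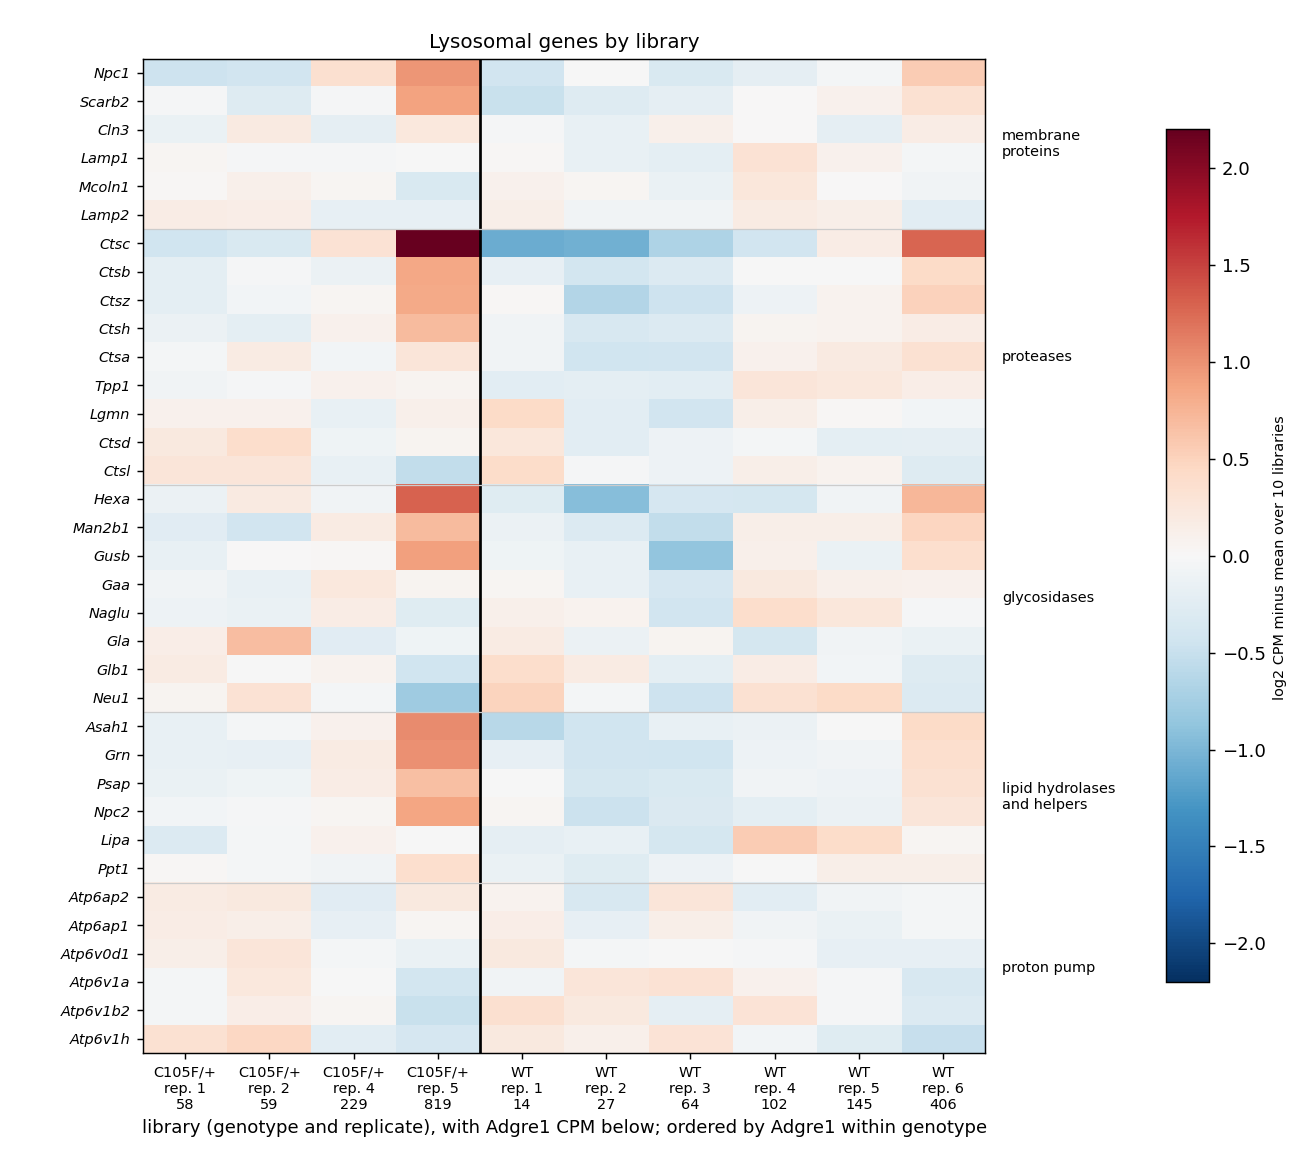
Each cell is the log2 CPM of a member (rows, by role) minus its mean over the 10 libraries, with the 4 C105F/+ libraries left of the 6 wild-type libraries and each genotype ordered by Adgre1, whose CPM stands under the column. Red at C105F/+ replicate 5 and wild-type replicate 6 marks Ctsc, Hexa, Asah1 and Grn, and Atp6v1h, Atp6v1a and Atp6v1b2 are blue in the same columns.

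The comparison was repeated with the log2 CPM of Adgre1 as covariate, which asks whether genotypes differ at a given Adgre1. Again 0 of 35 members were called in edgeR, against 51 of 15122 genes (0.337%), and DESeq2 and limma-voom called 0 members. At an unadjusted p under 0.05 there were 2 of 35 members, against 12.9% of all genes. Over the members the log2 fold change now had a median of 0.04, against -0.02 over all genes. All 35 intervals now lay within 2-fold, against 74.7% of all genes, and 31 lay within 1.5-fold (88.6% against 49.6%), again not matched for level. The median standard error of the members was 0.14 with the covariate and 0.19 without it, and that over all genes was 0.17 with it and 0.22 without it.

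The large positive values without the covariate were smaller with it. Ctsc had a log2 fold change of 0.13 (SE 0.223), Hexa 0.26 (SE 0.230), Asah1 0.12 (SE 0.112), Grn 0.14 (SE 0.159) and Npc2 0.20 (SE 0.173). Ctsd did not follow them. Its log2 fold change was 0.31 with the covariate (SE 0.122, 95% interval 0.04 to 0.58), with an unadjusted p of 0.0259 and an edgeR adjusted p of 0.326. Over the alternatives tried for it the value stayed between 0.23 and 0.38 and the adjusted p between 0.176 and 1.0, so it did not pass in any of them.

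Atp6v1h (gene 108664, chromosome 1, 5083086 to 5162549 on mm10) was the other member with a small unadjusted p. It encodes subunit H of the cytosolic part of the pump and had 341, 372, 229 and 209 CPM in mutants, and from 191 to 334 CPM in wild type with a median of 276 CPM. The 2 mutant libraries with the least Adgre1 were above all wild-type libraries and the other mutants were low. Its log2 fold change was 0.28 with the covariate (SE 0.122, unadjusted p = 0.0432, edgeR adjusted p = 0.373) and 0.10 without it.

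Atp6v0d1, a subunit of the membrane part of the pump, had 179, 198, 159 and 149 CPM in mutants, and from 144 to 190 CPM in wild type with a median of 160 CPM. Gla had 14.1, 20.3, 10.7 and 12.0 CPM in mutants, and from 9.71 to 14.4 CPM in wild type with a median of 11.8 CPM. In both genes mutant replicate 2 was highest and lay above all wild-type libraries. Lipa, the lipase that frees cholesterol from its esters, had 245, 294, 325 and 302 CPM in mutants, and from 231 to 445 CPM in wild type with a median of 291 CPM. With the covariate the log2 fold changes were 0.18 (SE 0.086) for Atp6v0d1, 0.33 (SE 0.164) for Gla and -0.23 (SE 0.176) for Lipa, with edgeR adjusted p of 0.404, 0.421 and 0.615.

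**Figure D3:**
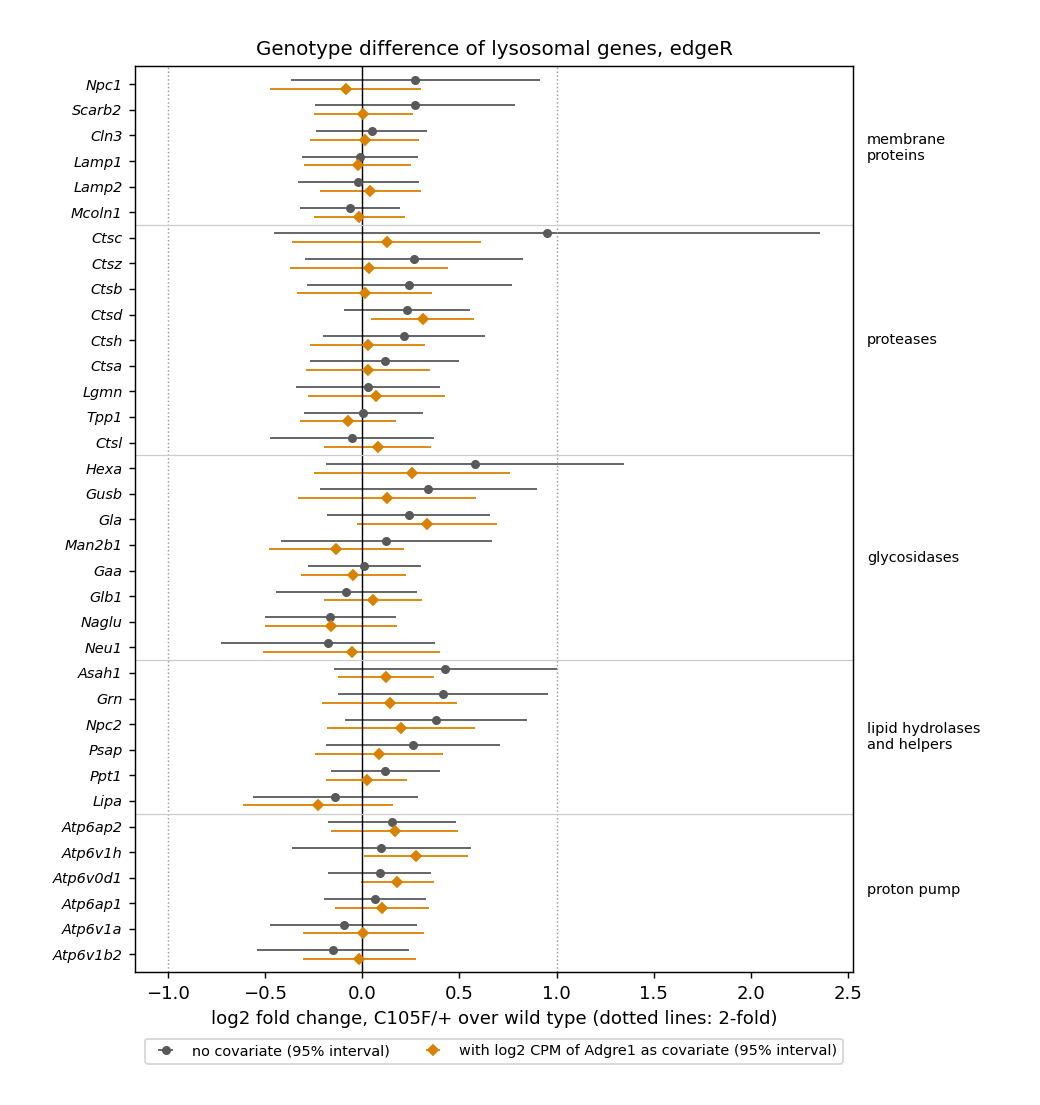
Log2 fold change of C105F/+ over wild type for each member with its 95% interval, without a covariate (grey circles) and with log2 CPM of Adgre1 as covariate (orange diamonds); dotted lines mark 2-fold. Ctsc lies at 0.95 without the covariate and at 0.13 with it, while Ctsd lies at 0.23 without it and at 0.31 with it.

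Along Adgre1 many members changed. In the same fit, the Adgre1 coefficient gives a gene's log2 change for each doubling of Adgre1, with genotype held. By it 17 of 35 members (48.6%) were called in edgeR, against 5438 of 15122 genes (36.0%): 12 members rose, against 19.7% of all genes, and 5 fell, against 16.2%. The median slope of the members was 0.05, against 0.01 over all genes, and 20 slopes were positive and 15 negative, in all 3 other scalings tried too. The called slopes of the members ran from -0.18 to 0.56. All 13 macrophage markers other than Adgre1 rose, with slopes from 0.18 to 1.14 and a median of 0.89, so the ranges overlapped.

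Proteases spanned the widest range of slopes. Of 9 members 4 rose with Adgre1 and 1 fell, together 55.6%, against 36.0% of all genes called. Ctsc rose by 0.56 per doubling (SE 0.059, edgeR adjusted p = 3.56e-05), the steepest slope of the 35, and the 6 wild-type libraries stood in the same order by Ctsc as by Adgre1. Ctsb, an abundant cysteine protease, had 1011, 1153, 1082 and 2124 CPM in mutants, and from 893 to 1583 CPM in wild type with a median of 1105 CPM. Ctsz, a carboxypeptidase, had 194, 216, 232 and 401 CPM in mutants, and from 144 to 318 CPM in wild type with a median of 219 CPM. Ctsh, an aminopeptidase, had 288, 270, 335 and 507 CPM in mutants, and from 247 to 352 CPM in wild type with a median of 312 CPM. In these 3 genes mutant replicate 5 and wild-type replicate 6 were the highest of their groups, and the slopes were 0.17 for Ctsb (SE 0.0434), 0.17 for Ctsz (SE 0.0502) and 0.14 for Ctsh (SE 0.0375).

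Ctsl went the other way. It had 894, 899, 666 and 511 CPM in mutants, and from 612 to 983 CPM in wild type with a median of 761 CPM. Mutant replicate 5 and wild-type replicate 6 were now the lowest of their groups, and the slope was -0.14 (SE 0.0381, edgeR adjusted p = 0.0128). Ctsd and Lgmn had slopes of -0.07 and -0.03, and Ctsa, which stabilises beta-galactosidase and sialidase, and Tpp1, a tripeptidyl peptidase, had slopes of 0.09 and 0.08; none of the 4 was called.

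Lipid hydrolases and their helpers all had positive slopes, against 52.1% of all genes. Of the 6, 4 rose (66.7%), against 19.7% of all genes. Asah1 rose by 0.24 per doubling (SE 0.0316, edgeR adjusted p = 0.00022) and Grn by 0.19 (SE 0.043). Psap had 2405, 2491, 2973 and 4240 CPM in mutants, and from 2045 to 3344 CPM in wild type with a median of 2501 CPM, and rose by 0.13 (SE 0.0413). Ppt1, which removes palmitate from proteins, had 166, 158, 155 and 211 CPM in mutants, and from 135 to 179 CPM in wild type with a median of 156 CPM, and rose by 0.08 (SE 0.0273). Npc2 and Lipa had slopes of 0.13 and 0.09 and were not called (edgeR adjusted p = 0.0525 and 0.229).

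Among glycosidases, which trim sugar chains, 2 of 8 rose and 1 fell, together 37.5%, against 36.0% of all genes called. Hexa rose by 0.25 per doubling (SE 0.0614). Man2b1, acid alpha-mannosidase, had 212, 188, 285 and 408 CPM in mutants, and from 172 to 347 CPM in wild type with a median of 253 CPM, and rose by 0.19 (SE 0.0437). Glb1, beta-galactosidase, had 205, 180, 193 and 135 CPM in mutants, and from 150 to 239 CPM in wild type with a median of 190 CPM, and fell by 0.12 (SE 0.0342). Its lowest level in each group was in the library with the most Adgre1. Neu1, a sialidase that works in a complex with Glb1 and Ctsa, had 443, 536, 417 and 248 CPM in mutants, and from 312 to 601 CPM in wild type with a median of 476 CPM. Its slope of -0.14 was not called (SE 0.0639, edgeR adjusted p = 0.108), and wild-type replicate 3, not replicate 6, was lowest in its group. Gusb, Gaa, Naglu and Gla, which release glucuronic acid, glucose, N-acetylglucosamine and galactose, had slopes of 0.15, 0.05, -0.00 and -0.10 and were not called.

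Of 6 membrane proteins 2 rose and 0 fell, or 33.3% called, against 36.0% of all genes. The abundant Lamp1 and Lamp2 had slopes of 0.01 and -0.06 and ranged over 1.44-fold and 1.32-fold across the 10 libraries. Scarb2, which carries glucocerebrosidase to the lysosome, had 62.3, 52.2, 62.3 and 117 CPM in mutants, and from 45.1 to 80.6 CPM in wild type with a median of 59.7 CPM, and rose by 0.20 (SE 0.0329, edgeR adjusted p = 0.000759). Npc1 had 16.3, 16.6, 28.5 and 43.4 CPM in mutants, and from 16.6 to 32.7 CPM in wild type with a median of 20.5 CPM, and rose by 0.24 (SE 0.0482). Both were highest in mutant replicate 5 and wild-type replicate 6 of their groups. The calcium channel gene Mcoln1 and Cln3 had slopes of -0.05 and 0.03 and were not called.

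All 6 proton pump subunits had negative slopes and 3 fell. Atp6v1h fell by 0.18 per doubling (SE 0.037, edgeR adjusted p = 0.00357) and Atp6v0d1 by 0.08 (SE 0.0252). Atp6v1b2, the B subunit found in most cell types, had 417, 476, 446 and 307 CPM in mutants, and from 351 to 554 CPM in wild type with a median of 462 CPM, and fell by 0.12 (SE 0.0396). The catalytic subunit gene Atp6v1a had a slope of -0.10 and the accessory subunit genes Atp6ap1 and Atp6ap2 had slopes of -0.03 and -0.01, none of them called.

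**Figure D4:**
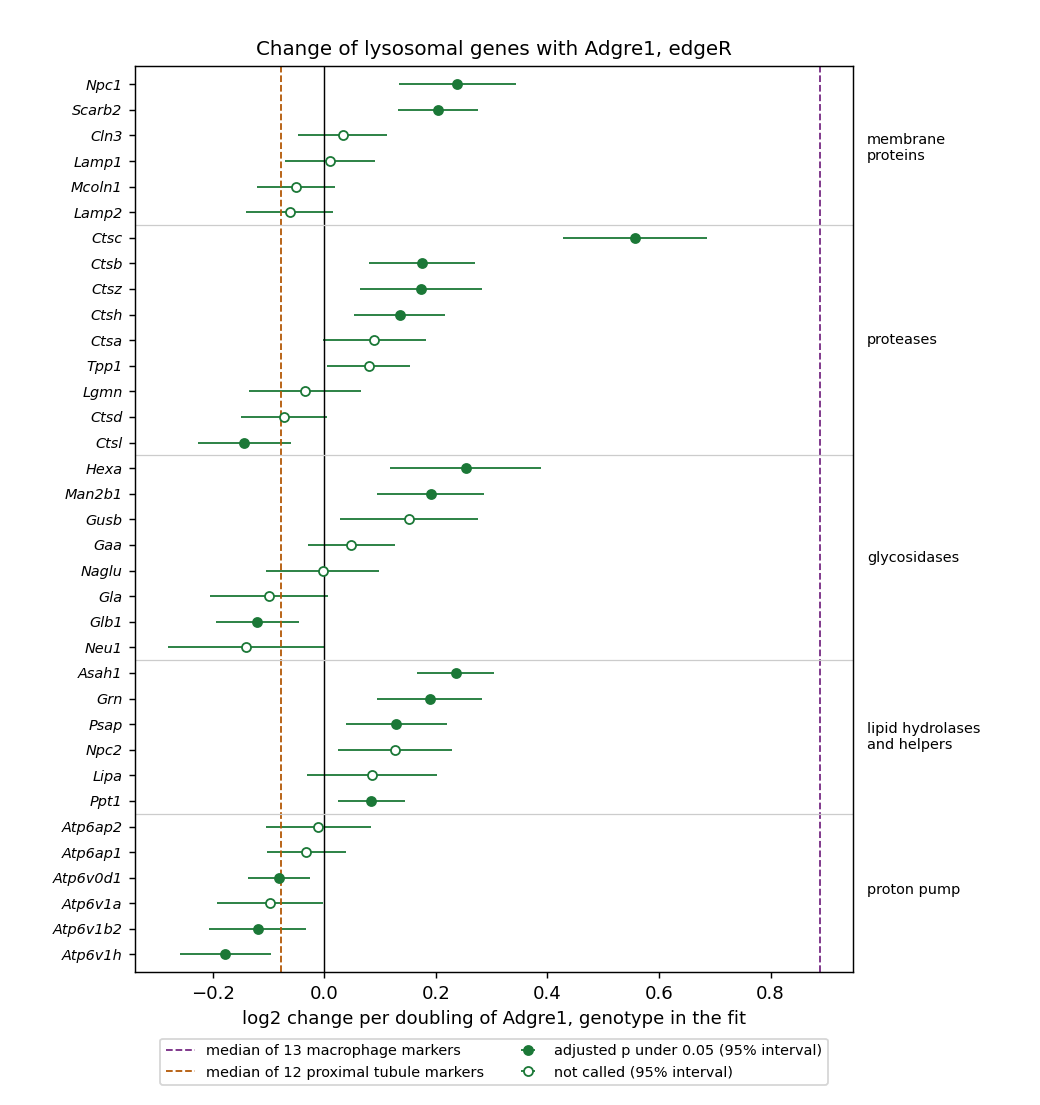
Log2 change of each member per doubling of Adgre1 with its 95% interval, by role; filled points had an edgeR adjusted p under 0.05. All lipid hydrolases and helpers lie right of 0 and all pump subunits left of it, and every member lies below the median of 13 macrophage markers at 0.89, with the median of 12 proximal tubule markers at -0.08.

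How many slopes were called depended on the libraries with most Adgre1. All 17 called members kept the sign of their slope when any library was left out, but fewer were called without some of them, both among members and among all genes. With mutant replicate 5 left out 7 of 35 members were called, a smaller share than the 22.8% of all genes tested there. With wild-type replicate 6 left out 10 of 35 were called, about the same share as the 28.7% of all genes. The larger share of members called in the full fit was thus not kept when 1 of these libraries was left out. Without both mutant replicate 5 and wild-type replicate 1, the libraries farthest from the median Adgre1, 7 of 35 members were called. That was a larger share than the 7.62% of all genes. In the 6 wild-type libraries alone 3 of 35 members were called (Ctsc, Scarb2 and Asah1), a smaller share than the 12.9% of the genes tested there. All 17 had the same sign in that fit. Asah1, Atp6v1h, Ctsc, Grn, Man2b1, Npc1 and Scarb2 were called in all 10 fits that left out 1 library. Atp6v0d1 was called in only 4 of these fits, Atp6v1b2 and Ppt1 in 5 each and Psap in 6, and the other called members in 7 to 9.

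**Figure D5:**
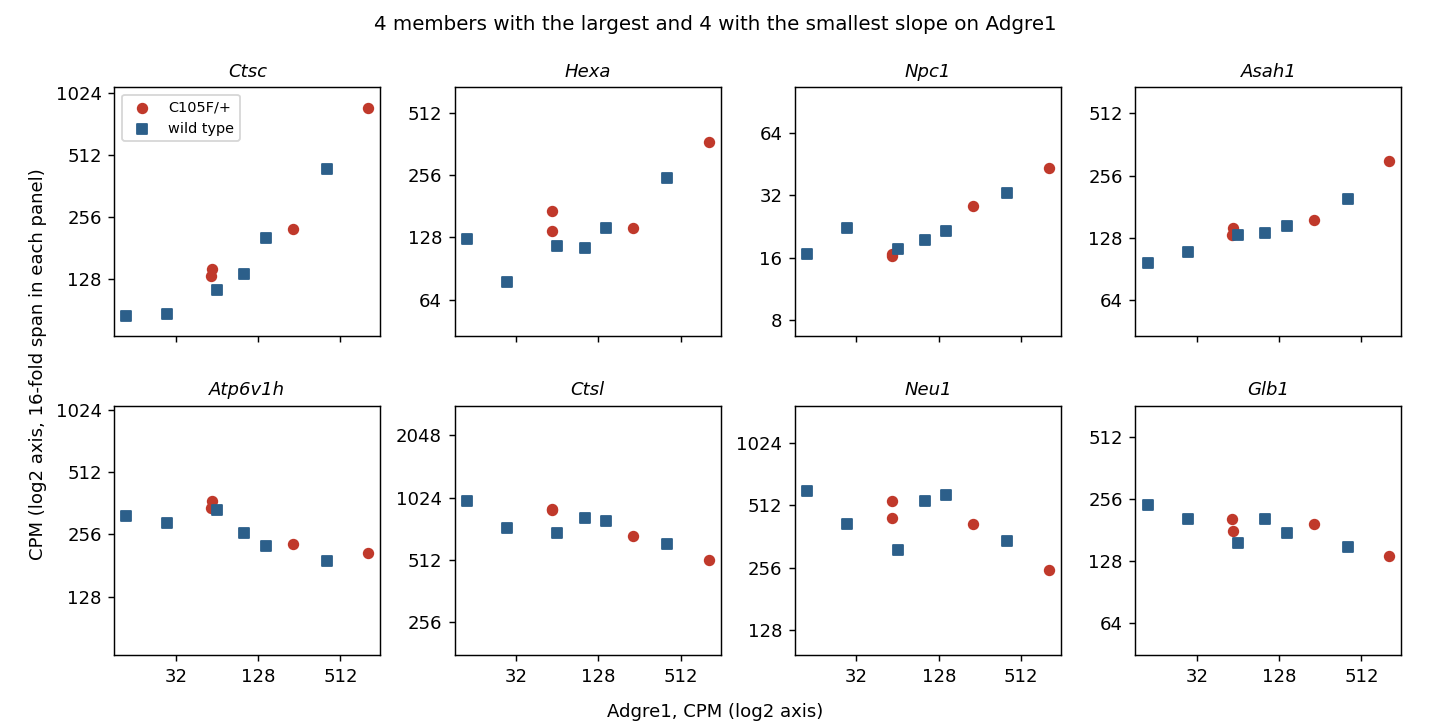
CPM of the 4 members with the largest slopes (upper row) and the 4 with the smallest (lower row) against CPM of Adgre1, on log2 axes of equal span; each point is a library, C105F/+ in red and wild type in blue. Ctsc climbs along the whole range, Hexa mainly in C105F/+ replicate 5 and wild-type replicate 6, and the lower row slopes down, with Neu1 the most scattered.

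Markers of several other cell types moved with Adgre1 as well. In edgeR all 5 monocyte, 4 of 6 dendritic cell and 5 of 6 fibroblast and pericyte markers rose, against 19.7% of all genes. All 5 podocyte and 4 of 6 endothelial markers rose as well. Falling were 4 of 12 proximal tubule and 3 of 7 ascending limb and distal tubule markers, against 16.2% of all genes. Of the tested markers of lymphocytes and neutrophils, 2 of 7 for T cells (Cd4 among them, at 1.00), 1 of 4 for B cells (Cd79b, at 0.67) and 1 of 5 for neutrophils (Csf3r, at 0.82) rose. Of 8 intercalated cell markers 1 fell, the pump subunit gene Atp6v1g3, at -0.23. None of the tested natural killer, principal cell or erythroid markers was called in edgeR or had an unadjusted p under 0.05 there. DESeq2 called the natural killer marker gene Ncr1, which had too few counts to be tested in edgeR and was at 0 in some libraries. Sums of chosen markers depend on the level of each marker and do not compare numbers of cells. In the proximal tubule sum Kap alone averaged 32372 CPM in mutants and 31331 CPM in wild type. The summed CPM of several non-tubular cell types was small beside that of the proximal tubule. It was at most 245 in mutants and 133 in wild type for monocytes. For fibroblasts and pericytes it was at most 309 in mutants and 507 in wild type. Dendritic cell markers summed to at most 38.4 in mutants and 43.0 in wild type. Podocyte markers reached 290.2 in mutants and 571 in wild type, and endothelial markers 361 in mutants and 534 in wild type. The highest sums of macrophage markers and of erythroid markers exceeded all of these maxima of the same genotype. T cell markers summed to at most 71.3 CPM in mutants and 40.2 CPM in wild type, and B cell markers to at most 19.4 CPM in mutants and 14.9 CPM in wild type. Neutrophil markers summed to 2.15 to 24.6 CPM in mutants and 1.09 to 13.7 CPM in wild type, and 2 of 7 were at 0 in every library. The part of these cells in the slopes was not tested.

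The promoter motifs fell unevenly over the slopes, a split looked at after the slopes were known and not tested. CACGTG was absent from all 8 members that rose with Adgre1 and have a promoter sequence, as in Ctsc above. Of all 29 members with a promoter sequence 44.8% hold it, and of all genes with such a sequence 8.09%. CACGTG was present in all 3 members that fell and have a promoter sequence, Ctsl, Glb1 and Atp6v0d1. It was also in 10 of the 18 that were not called, Ctsd and Cln3 among them. With 1 library left out, Ctsl was called in 9, Glb1 in 7 and Atp6v0d1 in 4 of 10 fits. The Atp6v0d1 sequence, like that of Ctsd, lies at a start that is not the start of the table's transcript.

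Other lysosomal genes were likewise not called between genotypes. They were genes in the roles of the members, together with 19 that sort enzymes to the lysosome and 16 regulators of lysosomal genes. Of these 122 genes 0 passed in edgeR without the covariate and 0 with it, against 0.198% and 0.337% of all genes. An unadjusted p under 0.05 was found for 1 without it, against 5.9% of all genes, and for 10 with it, against 12.9%. The 1 without it was Fnip2, one of the regulators and a partner of folliculin in nutrient signalling at the lysosome, with 30.8 ± 6.58 CPM in mutants and 40.3 ± 3.65 CPM in wild type (SD, n = 4 and 6; log2 -0.38, SE 0.139, edgeR adjusted p = 0.701). Tcirg1, a pump subunit of osteoclasts and other blood-derived cells, averaged 29.8 ± 11.1 CPM in mutants and 18.4 ± 9.19 CPM in wild type (log2 0.69, SE 0.336, edgeR adjusted p = 0.873).

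Along Adgre1 60 of these 122 genes were called (49.2%), against 36.0% of all genes. They split evenly, 30 rising and 30 falling, against 19.7% and 16.2% of all genes. Of 13 other proteases and inhibitors 4 rose and 4 fell, among them the macrophage protease gene Ctss at 0.83 (SE 0.0447), the inhibitor gene Cst3 at 0.26, the tubule and lung protease gene Napsa at -0.32 and the inhibitor gene Cstb at -0.15. Ctss thus lay near the median of the macrophage markers, and was steeper than any of the 35. Of 29 other membrane proteins and transporters 9 rose and 3 fell, with Cd68, Laptm5, Slc15a3 and Slc11a1, genes known from macrophages and other leukocytes, at 0.98, 0.93, 0.86 and 0.85.

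Of 27 other hydrolases 9 rose and 6 fell, with Pla2g15, a phospholipase, at 0.41, Idua at 0.27 and Acp2 at 0.20. The other pump subunits leaned as the 6 members did: 10 of 18 fell and 2 rose. Atp6v1g1, Atp6v1f, Atp6v0b and Atp6v1e1 had slopes of -0.17, -0.16, -0.15 and -0.14, and the 2 that rose were Tcirg1 at 0.25 and Atp6v0a1 at 0.13, named after their values were seen. Of 19 genes that sort enzymes to the lysosome 5 rose and 2 fell, together 36.8%, against 36.0% of all genes called. Among them were Gnptab, which builds the sugar tag, at 0.20 and Gga3, an adaptor, at 0.19. The adaptor subunits Ap3b1 and Ap3d1 were at 0.16 each. Of 16 regulators 1 rose and 5 fell, together 37.5%. Tfe3, a relative of TFEB, rose by 0.21. Lamtor2, Lamtor4 and Lamtor5, parts of the scaffold that holds mTORC1 to the lysosome, fell by 0.24, 0.22 and 0.15. Tfeb itself had a slope of 0.05 and was not called.

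The table lists 53 transcripts for the 35 members, and 11 members had more than 1. The way reads shared by transcripts were apportioned was not given in the sources used here, and these shares are less certain than the sums. Tested one by one, 0 of the 53 transcripts were called between genotypes in edgeR. Variant 1 of Cln3 held 34.7%, 25.2%, 58.7% and 67.8% of the gene's counts in mutant replicates 1, 2, 4 and 5, and 15.6%, 21.7%, 17.3%, 58.1%, 45.2% and 59.6% in wild-type replicates 1 to 6. The share was highest in the library of each group with the most Adgre1, while the gene's total stayed between 19.9 and 26.9 CPM. The Cln3 promoter printed above belongs to the start of variants 2 and 3, and the promoter of variant 1 holds none of the motifs.

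Variant 2 of Ctsa held 13.6%, 17.8%, 6.89% and 5.72% of its counts in mutant replicates 1, 2, 4 and 5, and 29.1%, 27.9%, 25.0%, 11.9%, 23.9% and 4.09% in wild-type replicates 1 to 6. It was lowest in mutant replicate 5 and wild-type replicate 6, and the groups overlapped. The TCACGTGA copies of Ctsa lie at the start of variant 1. Variant 1 of Lamp2 held 50.3% in mutant replicate 5 and 53.9% in wild-type replicate 6, against 56.8% to 61.7% in the other 8 libraries. Variant 1 of Lamp1 held 25.2% in mutant replicate 4 and 20.5% and 23.8% in wild-type replicates 1 and 2, against 4.04% to 7.11% elsewhere, which follows neither genotype nor Adgre1.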

How the data were processed

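RNA of 10 libraries, 4 from C105F/+ mice and 6 from wild-type littermates, was measured; the groups come from the sample titles, and the labels describe separate mice. Per the labels' protocols, kidneys were digested for 30 minutes, passed through a 40 µm mesh, freed of dead cells and selected with anti-F4/80 beads, and 75 ng of RNA was enriched with oligo-dT and prepared strand-specifically. Per the submitters' processing notes, the aligners HISAT2 2.1.0 and Bowtie2 2.3.4.1, the trimmer Trimmomatic 0.38, the assembler StringTie 1.3.4d and DESeq2 were used on build mm10; how they were combined was not given in the sources used here. An estimated count was deposited by the authors, with an FPKM value, for each of 36779 RefSeq transcripts in each library. The deposited counts matched FPKM times length times a library constant in 100% of transcripts of 20 or more counts (tolerance 1 read or 0.5%), so both hold the same estimate. 1 line of the table was empty.

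Whole-number counts were summed per symbol, filtered with filterByExpr, scaled by TMM and fitted in edgeR 4.0.16 (R 4.3.3) with robust quasi-likelihood and its F test over all 10 libraries. 3 tests were made: genotype, genotype with log2 CPM of Adgre1 (prior count 2) as covariate, and the slope on Adgre1 in that fit. P-values were adjusted over all genes tested, and a gene was called under 0.05. Fits were tested on simulated counts. Alternatives used DESeq2 1.42.0, limma 3.58.1, other scalings, filters and covariates, single transcripts, a replicate block and fits without single libraries; leaving out the 2 libraries farthest from the median Adgre1 was chosen after seeing the data. The members and lists were chosen with earlier results of these data known. Values in each library are given for members called in any test, for the 6 smallest p of each genotype test and for the 4 largest and 4 smallest slopes, and other lists are shown by up to 4 called genes or their smallest p; some genes that this names are not reported here. No 2 libraries of the same genotype were duplicates (smallest chi-square per gene 74.9), and pairs across genotypes were not checked in this way. Figures were drawn with matplotlib 3.10.9.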

Additional observations from a re-analysis of the deposited data

Results flagged for a closer look

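In 13 of 70 sets of values (35 members in 2 groups) the highest or lowest library stood apart from the others of its group by Dixon's criterion; chance marks about 1 in 20 such sets, and the members share libraries. Mutant replicate 5 stood above the other mutants for Ctsb at 2124 CPM, Ctsc at 866 CPM, Npc2 at 540 CPM, Hexa at 369 CPM, Asah1 at 302 CPM, Gusb at 136 CPM and Scarb2 at 117 CPM. Wild-type replicate 6 stood above the other wild types for Ctsc at 438 CPM, Grn at 336 CPM and Npc1 at 32.7 CPM. These were the libraries with the most Adgre1 in their groups, at 818.6 CPM in mutant replicate 5 and 406.3 CPM in wild-type replicate 6. Mutant replicate 4 stood below the other mutants for Lgmn at 868 CPM and for Atp6ap2 at 216 CPM. Wild-type replicate 1, the library with the least Adgre1, stood above the other wild types for Ctsd at 1494 CPM. That library also had the lowest TMM factor, 0.860. In the deposited FPKM, which TMM does not scale, Ctsd ran from 542 to 649 in wild type and from 627 to 784 in mutants. How far this flag depends on the scaling was not tested.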

How the results depend on the processing

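No member was called between genotypes under any alternative run. The number of all genes called without a covariate was 30; it was 14 to 24 with a library left out, 10 without the 2 libraries farthest from the median Adgre1, 136 in DESeq2, 52 with a macrophage marker score as covariate and 13 on single transcripts. With Adgre1 as covariate it was 51, against 23 to 64 with a library left out, 25 without the 2 farthest and 337 in DESeq2. The replicate numbers 1, 2, 4 and 5 occur in both groups, and the labels do not say whether they pair mice. Deviations of same-numbered libraries correlated at 0.43, 0.28, 0.02 and 0.44, and not every library correlated best with its own number. These values cannot decide on pairing, because libraries alike in Adgre1 also correlated. Mutant replicate 5 and wild-type replicate 6, each with the most Adgre1 of its group, correlated at 0.75. With a replicate block 217 genes and 0 members were called, against 21 genes in the same 8 libraries without it, and with block and Adgre1 together 0 genes. That last fit turned Lipa to 0.014 and Npc2 to -0.017. Without the 2 farthest libraries, the genotype difference without a covariate was -0.022 for Asah1 and -0.24 for Ctsc, and that of Ctsc ran from -0.080 to 1.46 with a library left out (-0.080 without mutant replicate 5); the cause was not tested. For slopes, 5438 genes were called, against 3477 to 5546 with a library left out, 1159 without the 2 farthest and 1772 in wild type alone. The 17 members called became 7 to 18 with a library left out, 7 without the 2 farthest and 3 in wild type alone. Of these 6 to 14, 6 and 3 rose, and 1 to 5, 1 and 0 fell. RLE and upper quartile scaling, no filter, no robust dispersion and limma-voom kept the same 17 calls, and DESeq2 added Gusb and Npc2. Each member had at least 567 counts in every library.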
